A study of Homo sapiens with 6 samples.

Results

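The heat shock chaperones described here are 10 genes of the 60671 identifiers counted in each sample. They were chosen by name, with earlier results of these data known. HSPA1A, HSPA1B, HSPH1, DNAJB1 and HSP90AA1 are the heat-inducible members, and HSPA8, HSP90AB1, DNAJA1, HSPD1 and HSPE1 the members that cells express constitutively. All 10 were detected in every sample and all 10 passed the filter on low counts, which kept 17649 genes. The RNA came from wild-type EndoC-βH1 cells, an immortalised human line that secretes insulin and carries the large T antigen of a simian virus under a rat insulin promoter. The 3 control samples had DMSO, the solvent, and the other 3 had AZD7762, an inhibitor of the checkpoint kinases CHEK1 and CHEK2, at 1 µM. All 6 were starved for 1 h in 0.5 mM glucose and then held for 1 h in 0.5 or 20 mM glucose, with DMSO or AZD7762 in both steps. The labels do not say which of the 2 glucose concentrations each sample had, nor whether the replicates were separate cultures, so the p-values measure only the spread between these samples.

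Chaperones of the HSP70 family bind unfolded segments of proteins and release them in a cycle driven by ATP, which J proteins (the DNAJ genes) start and nucleotide exchange factors end. HSP90 takes up nearly folded clients such as kinases and receptors, and the HSPD1 and HSPE1 proteins form the folding chamber of the mitochondrial matrix. When unfolded proteins accumulate, the transcription factor HSF1 binds repeats of the pentamer NGAAN, the heat shock element, and induces part of this family, while other members are expressed at a high level in nearly all cells without stress.

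Total counts were 29402440, 26921225 and 20486391 in DMSO replicates 1, 2 and 3, and 25494187, 21441444 and 21503144 in AZD7762 replicates 1, 2 and 3. At these depths a floor of 3 counts corresponded to 0.102 to 0.144 CPM, so each of the 10 genes lay far above it. CPM are counts per 1000000 of the library total, scaled by edgeR's TMM factors. All 10 markers of beta cells on a fixed list were expressed, among them CHGA, a granule protein, at 3601 CPM and INS, insulin, at 1260 CPM on average with DMSO. Mitochondrial genes held 1.57%, 2.13% and 2.12% of the counts with DMSO and 2.26%, 2.28% and 2.63% with AZD7762. That share was higher in all 3 AZD7762 samples, and its part in the levels below was not tested.

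With AZD7762, no chaperone of the 10 passed an adjusted p of 0.05, against 125 of the 17649 genes tested (0.708%; edgeR quasi-likelihood test with Benjamini-Hochberg adjustment over all genes). The heat-inducible HSP70 genes HSPA1A and HSPA1B had the highest fitted fold changes, at 1.30 and 1.22, and were the only 2 of the 10 whose AZD7762 samples all lay above the DMSO samples and whose unadjusted p was under 0.05. Over all genes tested, 6.79% lay apart in that direction and 4.43% had an unadjusted p under 0.05 with a higher level; among genes at least as abundant as the least abundant member these shares were 8.61% and 6.18%. The other 8 members had fold changes of 1.01 to 1.09, and their AZD7762 and DMSO samples overlapped. In bulk RNA, a difference in every cell and one in a share of the cells cannot be told apart. All 10 fitted changes were above 0, as were 52.4% of all genes and 59% of the 8094 genes at least as abundant as the least abundant member, and under upper quartile scaling or library totals alone 9 of the 10 were.

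**Figure D1:**
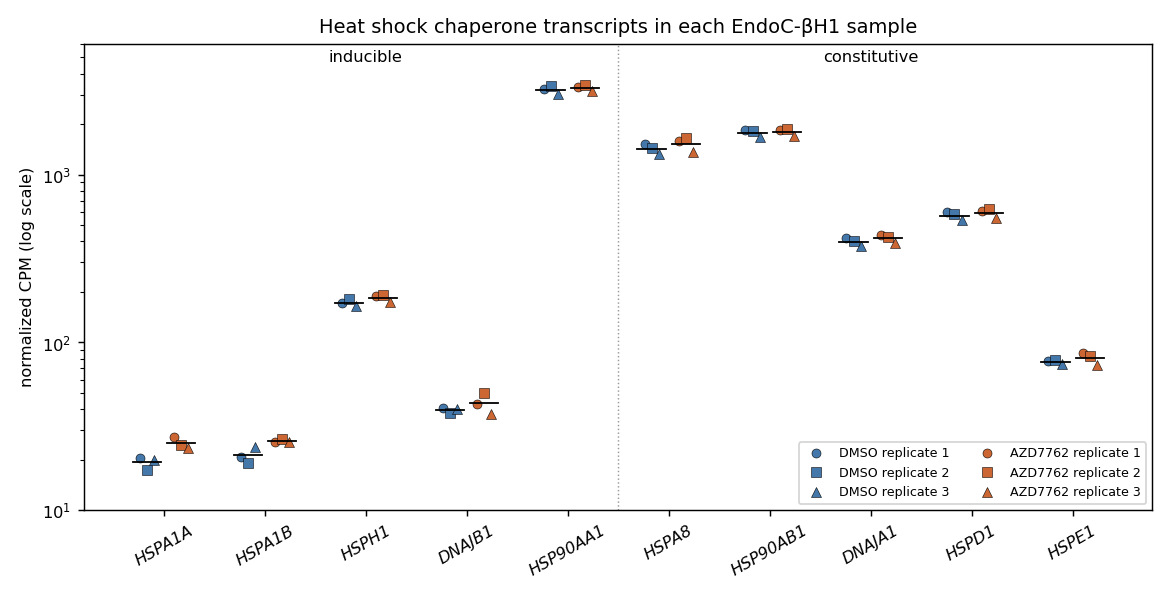
Normalized CPM (log axis) of the 10 chaperone genes in each sample; circles, squares and triangles are replicates 1, 2 and 3, blue is DMSO, orange is AZD7762 and black lines are group means. The AZD7762 points lie above all DMSO points for HSPA1A and HSPA1B and overlap them for the other 8 genes.

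The letters of the heat shock element were searched in RefSeq windows of the GRCh38.p14 assembly, from 250 bases before to 50 bases after each annotated start. Runs of 3 consecutive units (GAANNTTCNNGAA or TTCNNGAANNTTC, the reverse complement of each other) occurred in 0.49% of 35116 windows and 0.608% of 27305 genes, and in 5 of the 16 windows and 5 of the 10 genes of the chaperones (HSP90AA1, HSPA8, HSP90AB1, DNAJA1 and HSPD1). A pair of units (GAANNTTC or TTCNNGAA, each its own reverse complement and contained in the longer pattern) occurred in 13.5% of windows and 16.2% of genes, and in 9 of the 16 chaperone windows and 8 of the 10 genes, all but HSPH1 and HSPE1. One match upstream of the start, the nearest run of 3 units or, where there was none, the nearest pair, is shown for each of the inducible HSP70, J protein and HSP90 genes and of their constitutive partners, since these are the pairs compared below. Each is written along the gene's own strand with the matched letters in capitals and up to 8 bases on each side.
HSPA1A: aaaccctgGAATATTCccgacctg
HSPA1B: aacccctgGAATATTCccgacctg
DNAJB1: gggctctgGAAGCTTCcgccggac
HSP90AA1: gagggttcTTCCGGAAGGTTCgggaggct
HSPA8: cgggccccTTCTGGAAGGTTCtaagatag
HSP90AB1: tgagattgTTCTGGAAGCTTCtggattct
DNAJA1: gggctccaGAAGATTCcacgagcg

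In GRCh38.p14 the printed stretches are chr6:31815429-31815452 for HSPA1A, chr6:31827625-31827648 for HSPA1B, chr19:14518429-14518452 for DNAJB1 and chr9:33025067-33025090 for DNAJA1. Those with 3 units are chr14:102087112-102087140 for HSP90AA1, chr11:123062171-123062199 for HSPA8 and chr6:44247823-44247851 for HSP90AB1. The first capital lies 106 bases before the annotated start in HSPA1A, 105 in HSPA1B, 47 in DNAJB1 and 198 in DNAJA1, and 88, 55 and 112 bases before it in HSP90AA1, HSPA8 and HSP90AB1. HSPA1A, HSPA1B and DNAJB1 held the pair and not the run of 3 units in the window. HSP90AA1, HSPA8 and HSP90AB1 held the run upstream of the start, and DNAJA1 held it only past the start, where it is not printed. A match describes the letters only. All gene positions that follow are those of a GENCODE annotation on GRCh37, matched by identifier.

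HSPA1A (ENSG00000204389, chr6:31783320-31785723, plus strand) encodes the stress-inducible cytosolic HSP70. It was counted at 20.6, 17.4 and 19.9 CPM with DMSO and at 27.4, 24.5 and 23.4 CPM with AZD7762. Every AZD7762 sample was above every DMSO sample, with AZD7762 replicate 1 the highest and DMSO replicate 2 the lowest. The log2 fold change was 0.38 (SE 0.0912, 95% interval 0.18 to 0.58), with an unadjusted p of 0.00117 and an adjusted p of 0.108 in edgeR's quasi-likelihood test. The call turned on the filter, the test and the design: the adjusted p was 0.00775 with no filter on low counts, 0.0144 with a replicate block, 0.0186 by edgeR's likelihood ratio test, 0.0200 by its exact test and 0.0544 by DESeq2. Without AZD7762 replicate 1 the log2 fold change was 0.31 and the adjusted p 0.598.

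HSPA1B (ENSG00000204388, chr6:31795515-31798031, plus strand) lies next to HSPA1A and encodes an HSP70 identical or nearly identical to it. Its levels were 20.7, 19.1 and 23.9 CPM with DMSO and 25.5, 26.6 and 25.6 CPM with AZD7762. The AZD7762 samples were close together and above all DMSO samples, of which replicate 3 was the nearest. The log2 fold change was 0.29 (SE 0.0881, 95% interval 0.098 to 0.48), with an unadjusted p of 0.00636 and an adjusted p of 0.262 by edgeR. Without DMSO replicate 3 it was 0.38 with an adjusted p of 0.0454 by edgeR, and it ran from 0.21 to 0.38 when a sample was left out. Over all alternatives, by edgeR or DESeq2, the adjusted p ran from 0.0454 to 0.739. Of the 51-base windows of the HSPA1A transcript, 75.1% also occurred in HSPA1B, and 51 bases was the read length, so how reads were divided between these genes is uncertain. In addition, 36.6% of HSPA1B's exon length is shared on the same strand with ENSG00000285565, an identifier at 0 counts in all 6 samples. Summing the counts of HSPA1A and HSPA1B gave a log2 fold change of 0.33 (SE 0.0756), with an adjusted p of 0.0815 in the same edgeR test.

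HSPA8 (ENSG00000109971, chr11:122928197-122933938, minus strand), the constitutive HSP70 also called HSC70, was counted at 1522, 1438 and 1319 CPM with DMSO and at 1578, 1642 and 1358 CPM with AZD7762. Replicate 3 was the lowest of its group with either treatment, and the groups overlapped. Its log2 fold change was 0.097 (SE 0.0831, 95% interval of the fold 0.944 to 1.21; adjusted p of 0.763 by edgeR). Relative to its transcript length, HSPA8 was expressed 38.5 ± 5.19 times as highly as HSPA1A and HSPA1B together with DMSO and 32.4 ± 2.43 times with AZD7762 (SD, n = 3 each). With the union of all annotated exons as the length the ratios were 18.0 ± 2.42 and 15.2 ± 1.13. If reads that match both HSPA1A and HSPA1B went uncounted, which the sources used here do not say, these ratios are too high.

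HSPH1 (ENSG00000120694, chr13:31709110-31736525, minus strand) encodes HSP110, a nucleotide exchange factor of cytosolic HSP70. It was at 172, 180 and 165 CPM with DMSO and at 188, 193 and 174 CPM with AZD7762. Only AZD7762 replicate 3 lay within the DMSO range, below DMSO replicate 2. The log2 fold change of 0.099 (SE 0.0618) had an adjusted p of 0.648 by edgeR. With trends in GC content and gene length taken out it was 0.16, and HSPH1 was called when a replicate block was added to that correction. No 51-base window of its transcript occurred in another gene.

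DNAJB1 (ENSG00000132002, chr19:14625581-14671203, minus strand), the heat-inducible J protein HSP40, was at 41.0, 38.0 and 40.2 CPM with DMSO and at 42.7, 50.0 and 37.5 CPM with AZD7762. The AZD7762 samples spread more widely, holding both the highest value of the 6 in replicate 2 and the lowest in replicate 3. DNAJB1 had a log2 fold change of 0.13 (SE 0.0927; adjusted p of 0.706 by edgeR), which was 0.0099 without AZD7762 replicate 2 and 0.22 without AZD7762 replicate 3. The constitutive J protein DNAJA1 (ENSG00000086061, chr9:33025271-33039905, plus strand) was at 421, 401 and 375 CPM with DMSO and at 436, 422 and 392 CPM with AZD7762. These groups overlapped, with a log2 fold change of 0.063 (SE 0.0658; adjusted p of 0.812 by edgeR).

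HSP90AA1 (ENSG00000080824, chr14:102547079-102606036, minus strand) encodes the inducible cytosolic HSP90 alpha. It was at 3246, 3354 and 3016 CPM with DMSO and at 3335, 3417 and 3138 CPM with AZD7762. The groups overlapped, with replicate 2 the highest and replicate 3 the lowest of each. The log2 fold change was 0.041 (SE 0.0718; adjusted p of 0.901 by edgeR), and the 95% interval of the fold ran from 0.923 to 1.15. HSP90AB1 (ENSG00000096384, chr6:44213903-44221625, plus strand), the constitutive HSP90 beta, was at 1836, 1830 and 1671 CPM with DMSO and at 1834, 1857 and 1695 CPM with AZD7762. It had the smallest log2 fold change of the 10, 0.013 (SE 0.0694; adjusted p of 0.971 by edgeR), and this was -0.0041 with upper quartile scaling and -0.022 with library totals alone.

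HSPD1 (ENSG00000144381, chr2:198351308-198381461, minus strand) encodes the mitochondrial chaperonin HSP60. It was at 595, 579 and 537 CPM with DMSO and at 610, 620 and 552 CPM with AZD7762. Its partner HSPE1 (ENSG00000115541, chr2:198364864-198368173, plus strand), the lid protein HSP10, was at 77.7, 78.7 and 74.4 CPM with DMSO and at 86.4, 83.3 and 73.4 CPM with AZD7762. Both pairs of groups overlapped, and AZD7762 replicate 3 was the lowest of the 6 samples for HSPE1. The log2 fold changes were 0.057 for HSPD1 (SE 0.0675; adjusted p of 0.840 by edgeR) and 0.075 for HSPE1 (SE 0.0689; adjusted p of 0.783 by edgeR). Per length, HSPE1 stood at 0.544 ± 0.0163 of HSPD1 with DMSO and 0.550 ± 0.0189 with AZD7762 (SD, n = 3 each). Of 51-base windows, 47.9% of HSPE1's and 26.2% of HSPD1's also occurred in other genes. How such reads were counted is not given, so this ratio is uncertain. The 2 genes lie on opposite strands in overlapping stretches, and the labels name an unstranded and a stranded library kit without saying which was used, so reads from the overlap could not be assigned with certainty.

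**Figure D2:**
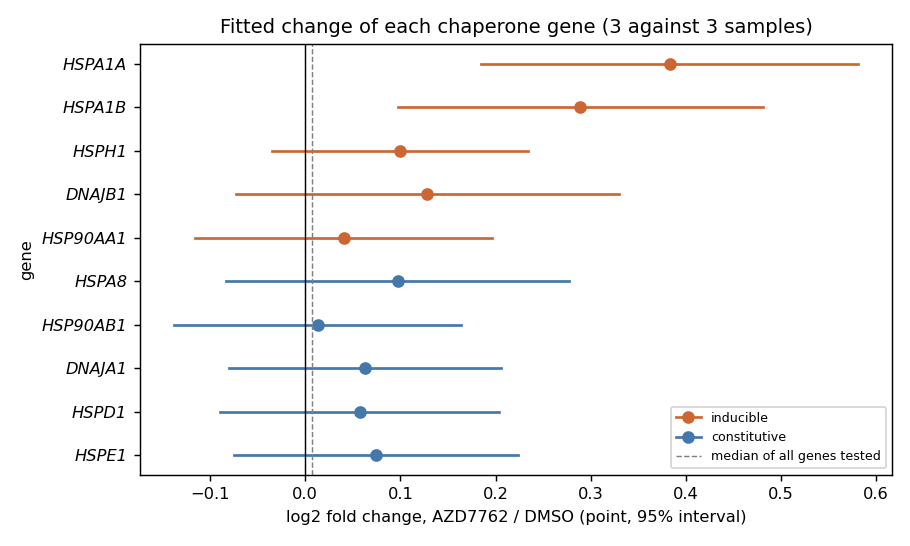
Fitted log2 fold change (AZD7762 over DMSO, 3 samples each) of the 10 chaperone genes with its 95% interval; orange marks inducible and blue constitutive members, and the dashed line is the median of all genes tested. The intervals of HSPA1A (0.18 to 0.58) and HSPA1B (0.098 to 0.48) lie above 0 and the other 8 include it, and the sign of HSP90AB1 turned with upper quartile scaling or library totals alone.

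Levels of different genes can be set side by side only per length, here as CPM per kilobase of the canonical transcript. With DMSO, HSP90AA1 stood highest at 993 ± 53.3 CPM per kilobase, followed by HSP90AB1 at 696 ± 36.7 and HSPA8 at 630 ± 44.9 (SD, n = 3). HSP90AB1 and HSPA8 overlapped over the 3 DMSO samples, whereas HSP90AA1 lay apart from both. HSPD1 (254 ± 13.5), DNAJA1 (172 ± 10.1) and HSPE1 (138 ± 4.07) followed on the same scale, each apart from the next. HSPH1 was at 32.9 ± 1.45, DNAJB1 at 17.7 ± 0.688, HSPA1B at 8.44 ± 0.969 and HSPA1A at 8.04 ± 0.712 CPM per kilobase, and the last 2 overlapped. The places of HSPA1A and HSPA1B below DNAJB1 assume that reads matching both genes were counted. Thus 4 of the 5 inducible members took the lowest 4 places and HSP90AA1 the highest. With the union of all annotated exons as the length, DNAJB1 came last (4.85 CPM per kilobase) and DNAJA1 came before HSPD1 (150 against 74.8), while HSP90AA1 had the highest mean (629 against 597 for HSP90AB1) but overlapped HSP90AB1 over the 3 DMSO samples.

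Sequence shared with other genes limits these levels. HSPA1A shared 75.1% of its 51-base windows and HSPA1B 73.6%, mostly with each other. HSPE1 shared 47.9%, most of all with HSPE1-MOB4 (28.2%), a gene on the same strand that shares exon bases with it, while HSPD1 shared 26.2%, HSP90AB1 19%, HSP90AA1 18.3% and HSPA8 15.7%, while DNAJB1 shared 2.42% and DNAJA1 1.32%. The counts assigned to annotated pseudogene copies amounted to 4.78% of HSPD1's own counts, 2.86% of HSPE1's, 2.45% of HSP90AA1's, 2.36% of HSP90AB1's and 0.579% of HSPA8's. The HSPD1 share lay between 4.57% and 4.97% in all 6 samples, so it differed little between treatments.

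To contrast inducible with constitutive members inside each sample, 3 partner pairs were compared as log2 ratios of normalized CPM, which library scaling cannot change. HSPA1A plus HSPA1B against HSPA8 gave -5.20, -5.30 and -4.91 with DMSO and -4.90, -5.01 and -4.79 with AZD7762. DMSO replicate 3 lay inside the AZD7762 range, so the groups overlapped. The difference was 0.24 (SE 0.132), with a two-sided exact permutation p of 0.2, adjusted over the 3 pairs to 0.3; the smallest p that 3 against 3 samples allow is 0.1. The difference was 0.16 without DMSO replicate 2 and 0.35 without DMSO replicate 3. HSP90AA1 against HSP90AB1 gave 0.82, 0.87 and 0.85 with DMSO and 0.86, 0.88 and 0.89 with AZD7762, a difference of 0.028 (SE 0.0169) and an exact permutation p of 0.2, adjusted to 0.3, with 0.014 to 0.040 when a sample was left out. DNAJB1 against DNAJA1 differed by 0.056 (SE 0.111) with an exact permutation p of 0.6, and the difference was -0.040 without AZD7762 replicate 2. No pair could pass 0.05 at this sample size.

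**Figure D3:**
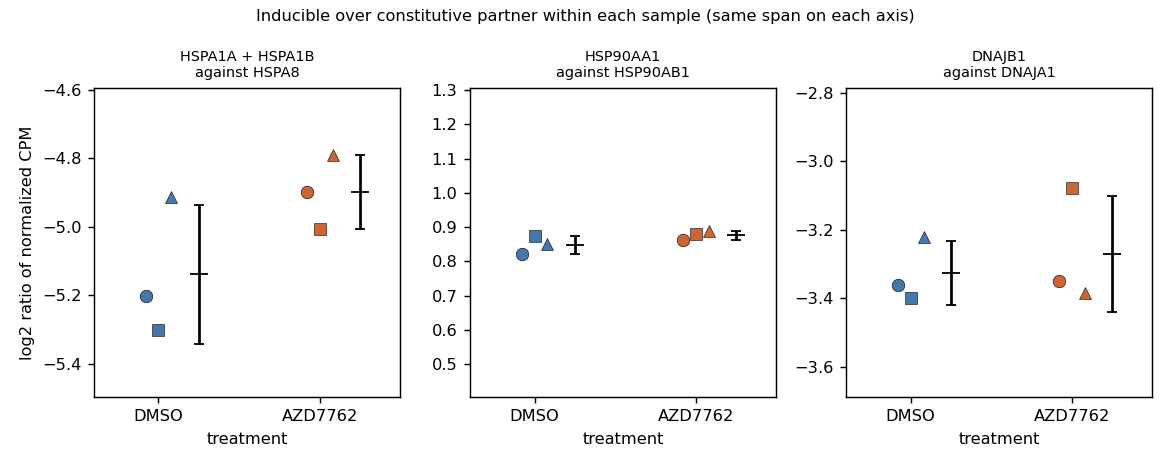
Log2 ratio of the inducible to the constitutive partner in each sample for 3 chaperone pairs, on axes of equal span; circles, squares and triangles are replicates 1, 2 and 3, and bars are the mean and SD of 3 samples. The groups overlap in each pair, and the HSP90 ratio varies least, with SDs of 0.0262 and 0.0133.

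As a group, the 5 inducible members had a median log2 fold change of 0.13 and the 5 constitutive members one of 0.063. The median was 0.0076 over all genes tested and 0.020 over genes at least as abundant as the least abundant member. Both classes had 5 of 5 fitted changes above 0, except that HSP90AB1 changed sign under the 2 scalings named above and on leaving out either of replicates 1 and 2 of AZD7762 or replicate 3 of DMSO. The unadjusted p (edgeR) was under 0.05 for 2 of the 5 inducible members and for 0 of the 5 constitutive ones. Such a p with a higher level was found for 4.43% of all genes tested. Among genes at least as abundant as the least abundant member it was found for 6.18%. The 2 members were HSPA1A and HSPA1B. Of HSPA1A's 51-base windows 75.1% also occurred in HSPA1B, so their counts may not be independent. For the constitutive 5, edgeR's exact test, likelihood ratio test and DESeq2 made no call either. The mean log2 CPM of the inducible members minus that of the constitutive ones was -2.49, -2.52 and -2.35 with DMSO and -2.36, -2.32 and -2.31 with AZD7762. DMSO replicate 3 again lay within the AZD7762 range. Summed CPM, which HSP90AA1 dominates among the inducible genes, were 3458 ± 175 for the inducible and 4252 ± 247 for the constitutive class with DMSO, and 3576 ± 160 and 4413 ± 300 with AZD7762 (SD, n = 3). Inducible genes therefore made up 44.9% ± 0.757 of the chaperone CPM with DMSO and 44.8% ± 0.633 with AZD7762. The 10 genes together took 0.779% ± 0.0362 of all counts with DMSO and 0.788% ± 0.0415 with AZD7762.

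Replicates of one treatment also differed from each other across these genes. DMSO replicate 3 was the lowest of its group in 7 of the 10 members and lay above its group mean in 3 of the 10, as did 38.6% of the 8094 genes at least as abundant as the least abundant member. AZD7762 replicate 3 was the lowest of its group in 9 of the 10. AZD7762 replicate 3 lay above its group mean in 0 of the 10 members, against 44.8% of those genes. HSPA1B was the exception in AZD7762 replicate 3, and in DMSO replicate 3 it was the highest of its group. AZD7762 replicate 2 was the highest of its group in 7 of the 10 and lay above its group mean in 9 of the 10, against 57.4% of those genes.

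**Figure D4:**
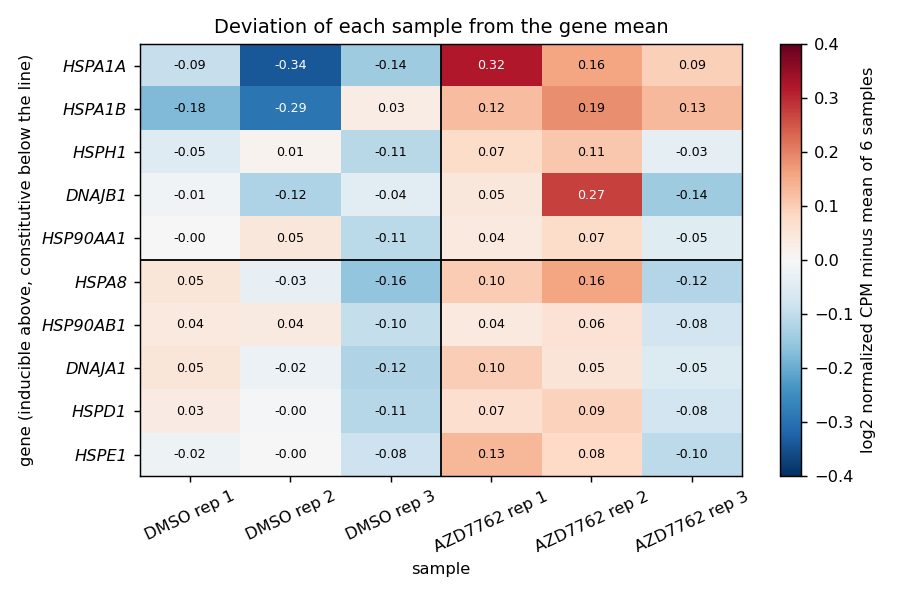
Log2 normalized CPM of each chaperone gene in each sample minus the gene's mean over the 6 samples, red above and blue below it; columns are samples and rows are genes, inducible above the line. HSPA1A and HSPA1B separate by treatment, and most other rows are lowest in replicate 3 of either treatment.

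Over the 6 samples, the genes outside the chaperone lists whose log2 CPM followed the mean of the 10 members most closely, of 10851 genes compared, were PDCL3 (Pearson's r = 0.997), MYCBP (0.993), DEGS1 (0.993), GABRA3 (0.990) and TUBA1C (0.988). PDCL3 encodes a phosducin-like protein that works with the cytosolic chaperonin CCT, and TUBA1C encodes an alpha tubulin, a client of CCT. No such link is given here for MYCBP, DEGS1 and GABRA3, and a function shared by these genes was not tested. The 10 members' own r with that mean ran from 0.58 for HSPA1B to 0.90 for HSPA8. These values describe 6 samples of 2 treatments and unequal depth, which all genes share within a sample, and the genes were picked for the highest r.

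No heat shock factor changed by the test. HSF1, the main stress-activated factor, was at 49.8, 46.3 and 63.7 CPM with DMSO and at 57.5, 52.7 and 57.7 CPM with AZD7762, with a log2 fold change of 0.075 (SE 0.101; adjusted p of 0.864 by edgeR) that was -0.024 without DMSO replicate 2. HSF2, a second factor of the family, had -0.041 (SE 0.0581), HSBP1, a small protein that binds HSF1, had 0.030 (SE 0.0658), and HSF4, at 0.785 CPM on average with DMSO, had 0.43 (SE 0.324). The adjusted p exceeded 0.05 for all 4 (edgeR).

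Across the 8 other lists of the chaperone pathway, 66 of 73 genes passed the filter; 0 were called higher and 1 was called lower with AZD7762, against 0.357% and 0.351% of all genes tested. At an unadjusted p under 0.05, 7 were higher and 2 lower, against 4.43% and 5.25% of all genes, and the lists' median log2 fold change was 0.045. The gene called was GRPEL2, a nucleotide exchange factor for the mitochondrial HSP70 HSPA9. It was at 86.1, 77.9 and 79.5 CPM with DMSO and at 61.1, 68.8 and 61.6 CPM with AZD7762, all AZD7762 samples below all DMSO samples, as in 8.25% of all genes. Its log2 fold change was -0.35 (SE 0.0681; adjusted p of 0.0362 by edgeR). The adjusted p was 0.185 without DMSO replicate 1, 0.0620 without DMSO replicate 2, 0.217 without AZD7762 replicate 1 and 0.110 without AZD7762 replicate 3, while the log2 fold change ran from -0.41 to -0.31 when a sample was left out. HSPA9 itself, the most abundant of the mitochondrial list per length, had a log2 fold change of 0.013 (SE 0.0584) whose sign turned with upper quartile scaling and library totals alone.

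Among 12 other heat-inducible targets of HSF1, 9 were tested and 0 called. At an unadjusted p under 0.05 (edgeR), 3 of the 9 were higher and 0 lower, against 4.43% and 5.25% of all genes. HSPB1, the small heat shock protein HSP27, had the smallest p: it was at 1.93, 1.95 and 2.92 CPM with DMSO and at 4.18, 2.85 and 3.70 CPM with AZD7762, with a log2 fold change of 0.69 (SE 0.200; adjusted p of 0.222 by edgeR). AZD7762 replicate 2 lay just below DMSO replicate 3, so the groups overlapped. HSPB1 was called with no filter on low counts, and under a replicate block with trends in GC content and gene length taken out. UBB, polyubiquitin B and the most abundant of the list per length, had 0.10 (SE 0.0738), and HSPA6, an HSP70 made only under strong stress, had at most 1 count in any sample. CRYAB, the alpha B crystallin chaperone, was likewise at 0 or 1 count, and both were singled out once their counts had been seen. Of the other small heat shock proteins 3 of 7 were tested, and HSPB6 had 3.35, 2.94 and 3.55 CPM with DMSO against 4.69, 5.18 and 4.03 CPM with AZD7762. All AZD7762 samples were above all DMSO samples, with a log2 fold change of 0.50 (SE 0.144; adjusted p of 0.220 by edgeR). HSPB11, the most abundant of that list per length and also named IFT25 as an intraflagellar transport gene, had 0.13 (SE 0.0888).

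In 4 of the 11 HSP90 cochaperones, all AZD7762 samples lay above all DMSO samples, against 6.79% of all genes. An unadjusted p under 0.05 with a higher level (edgeR) was found for 3 of the 11, against 4.43% of all genes. CDC37, which brings kinases to HSP90, was at 40.8, 40.4 and 43.3 CPM with DMSO and at 50.4, 44.0 and 47.8 CPM with AZD7762, with a log2 fold change of 0.19 (SE 0.0699; adjusted p of 0.377 by edgeR). The other 3, named after their values were seen, were AHSA1, which stimulates the ATPase of HSP90, at 0.16 (SE 0.0632), STIP1, which links HSP70 to HSP90, at 0.13 (SE 0.0580), and the myosin chaperone UNC45A at 0.12. PTGES3, the p23 cochaperone and the most abundant of the list per length, had a log2 fold change of 0.031 (SE 0.0701). None of the 11 was called in the main test. AHSA1 was called under a replicate block with trends in GC content and gene length taken out.

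The remaining cytosolic lists held no called gene either. Of 11 HSP70 paralogs and exchange factors 9 had a fitted change above 0, against 52.4% of all genes. Among genes at least as abundant as the least abundant member, 59% were above 0. The median of this list was 0.049, with HSPBP1, an exchange factor, at 0.18 (SE 0.110) and the cochaperone ST13 at 0.019 (SE 0.0599). Of 9 other J proteins, DNAJB5 had the smallest p, with 32.9, 29.2 and 29.4 CPM with DMSO and 25.1, 27.3 and 28.3 CPM with AZD7762. Its AZD7762 samples were all below the DMSO samples (log2 fold change -0.18, SE 0.0789; adjusted p of 0.477 by edgeR), while the most abundant, DNAJB6, was at -0.011 (SE 0.0599). The 8 subunits of CCT, which folds actin and tubulin, had a median of 0.053, with CCT7 at 0.14 (SE 0.0729) and CCT3 at 0.069 (SE 0.0658), the 2 genes standing level as the most abundant (205 CPM per kilobase for CCT3 and 204 for CCT7 with DMSO).

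Chaperones of the endoplasmic reticulum, set beside these as another folding compartment, had 0 of 12 genes called and a median of 0.069. In 4 of the 12 the AZD7762 samples all lay above the DMSO samples, against 6.79% of all genes, and 3 had an unadjusted p under 0.05 with a higher level, against 4.43%. SIL1, an exchange factor of the HSP70 of this compartment, was at 52.2, 50.2 and 54.5 CPM with DMSO. With AZD7762 it was at 62.3, 58.8 and 57.6 CPM (log2 fold change 0.19, SE 0.0628, adjusted p of 0.324 by edgeR). HSP90B1, the HSP90 of the same compartment and its most abundant gene per length on this list, had 0.025 (SE 0.0671).

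**Figure D5:**
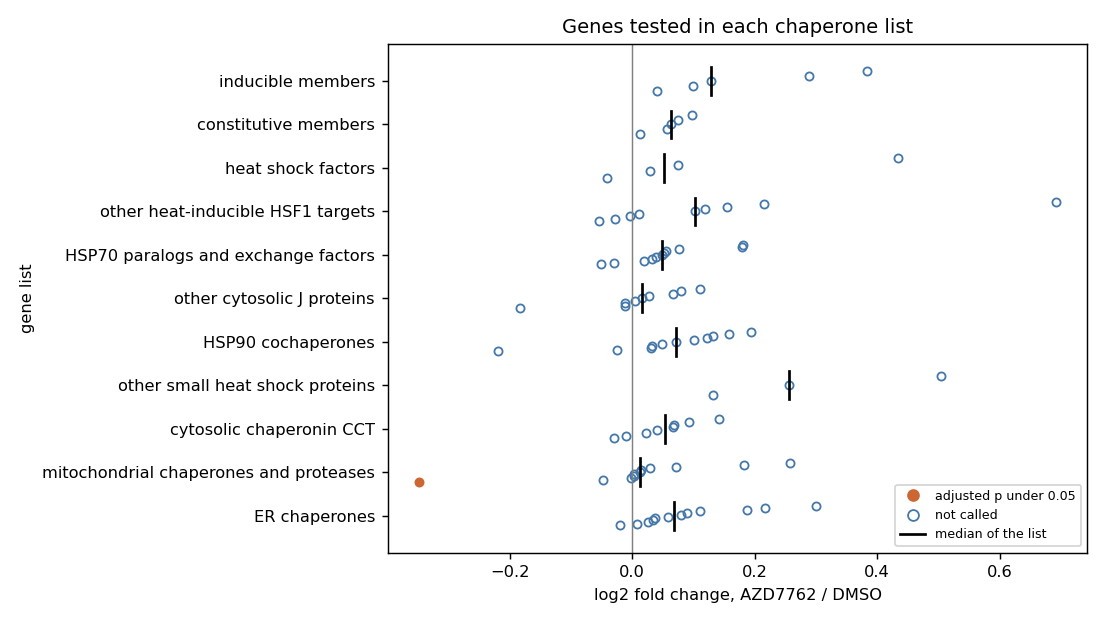
Log2 fold change (AZD7762 over DMSO) of every tested gene in each chaperone list; open points were not called, the filled point, GRPEL2 at -0.35, had an adjusted p under 0.05, and black lines are list medians. The list medians lie between 0.013 and 0.26, the highest resting on 3 small heat shock proteins.

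Markers of other islet cells were measured in the same samples. Their 7 genes summed to 322, 287 and 321 CPM with DMSO and to 355, 346 and 338 CPM with AZD7762, higher in all 3 AZD7762 samples. SST, somatostatin, made up most of this sum (215 CPM with DMSO and 254 with AZD7762; log2 fold change 0.24, SE 0.0633; adjusted p of 0.160 by edgeR), whereas GCG, glucagon, was at 1.40 and 1.54 CPM and PPY at 0.0348 and 0.0578. IRX2 averaged 71.8 CPM with DMSO and 71.4 with AZD7762, and HHEX 20.4 and 17.9. Of the 5 markers tested on this list, 2 had a fitted change above 0 and 3 below it (median log2 fold change -0.0069). The part of the difference in the summed CPM in the levels of HSPA1A and HSPA1B was not tested. Of 6 exocrine and duct markers, PRSS1, CELA3A and CTRB1 had 0 counts in all samples, and KRT19 was the most abundant, at 26.1 CPM with DMSO and 27.1 with AZD7762. CPA1 was at 22.6, 21.0 and 21.9 CPM with DMSO and at 27.5, 24.7 and 24.9 CPM with AZD7762, higher in all 3 AZD7762 samples (log2 fold change 0.24, SE 0.0770; adjusted p of 0.308 by edgeR), and its part in those levels was likewise not tested. The most abundant marker of stromal, endothelial and immune cells was COL1A1, at 12.1 and 12.5 CPM, while VWF and PTPRC, which mark endothelial and immune cells, averaged at most 0.0113 and 0.106 CPM.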

How the data were processed

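The deposited files, 1 per sample, hold whole-number counts of reads per Ensembl gene identifier, not normalized. Per the labels and the study's methods, the authors checked reads with FastQC 0.10.1, trimmed them with cutadapt 1.18, aligned them to GRCh37 and counted genes with HTSeq-count. The aligner, annotation release and strand setting are not given in the sources used here. Of the 60671 identifiers, 58646 (96.7%) matched the GENCODE annotation used for positions and lengths. Genes kept by filterByExpr (17649) were tested with edgeR 4.0.16 in R 4.3.3 (TMM scaling, quasi-likelihood fit on treatment, all 6 samples, Benjamini-Hochberg adjustment over all genes, threshold 0.05), after the fit was tested on simulated data. The biological coefficient of variation was 7.15%. Alternatives were other scalings and filters, DESeq2 1.42.0, other edgeR tests, a replicate block, GC content and length trends, and leaving out each sample. The length used for levels was compared with a second one added after seeing the data.

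The members and gene lists were chosen with earlier results of these data known. Named genes were the 10 members, the heat shock factors, and from each list the called genes, the gene with the smallest p and the most abundant per length, with the 5 genes most correlated with the members' mean. Cell type markers were listed too, and genes outside the rule are marked in the text. Partner pairs were tested by exact permutation. The floor of 3 counts covers counting error only. PECAM1, a marker on one list, matched no identifier.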

Additional observations from a re-analysis of the deposited data

How the results depend on the processing

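Of the 10 members, 0 were called at first; HSPA1A made it 1 with no filter on low counts, by the likelihood ratio test, by the exact test and with a replicate block, 2 (with HSPH1) under the block together with a correction for trends with GC content and gene length, and 0 to 1 when a sample was left out (HSPA1B, without DMSO replicate 3). The count of all genes called, 125, became 330, 267, 254 and 378 under the same first 4 settings, 227 with that correction alone, 575 with the block and the correction, and 77 (without AZD7762 replicate 1) to 168 when a sample was left out. The causes were not tested. Same-numbered samples correlated at 0.053, 0.12 and 0.21 in their deviations. DMSO replicates 2 and 3 correlated best with the same-numbered AZD7762 sample, whereas DMSO replicate 1 correlated best with AZD7762 replicate 2 (0.17). Whether the numbers mark pairs is therefore not settled, and the main test did not take them as pairs. Under the block, HSPA1A had an adjusted p of 0.0144 (edgeR). Of the other chaperone genes, 1 was called, against 2 with no filter (HSPB1 beside GRPEL2) and 0 to 2 when a sample was left out. Under the block with the correction 5 were called: GRPEL2, HSPB1, AHSA1, CHORDC1 and CACYBP, the last 2 named after their calls were seen. Fold changes near 0 turned sign. With upper quartile scaling HSP90AB1 was at -0.0041 and HSPA9 at -0.0039, and with library totals alone HSP90AB1 was at -0.022, HSBP1 at -0.0054, ST13 at -0.016, PTGES3 at -0.0044, HSPA9 at -0.022 and HSP90B1 at -0.010. DNAJB6 was at 0.0067 with the correction and 0.0076 with the block added. When a sample was left out, the values ran from -0.028 to 0.054 for HSP90AB1, -0.024 to 0.22 for HSF1, -0.0092 to 0.077 for HSBP1, -0.027 to 0.044 for ST13, -0.050 to 0.011 for DNAJB6, -0.013 to 0.095 for PTGES3, -0.017 to 0.034 for HSPA9, -0.0096 to 0.054 for HSP90B1, 0.0099 to 0.22 for DNAJB1, 0.035 to 0.18 for HSPA8, 0.00092 to 0.076 for HSP90AA1, 0.063 to 0.14 for HSPH1, 0.022 to 0.11 for DNAJA1, 0.018 to 0.11 for HSPD1, 0.017 to 0.14 for HSPE1, 0.084 to 0.72 for HSF4, -0.084 to -0.020 for HSF2, 0.052 to 0.17 for UBB, 0.054 to 0.32 for HSPBP1, 0.064 to 0.20 for HSPB11, 0.031 to 0.11 for CCT3 and 0.041 to 0.14 for the median of the 10 members, and the DNAJB1 against DNAJA1 difference ran from -0.040 to 0.11. HSPA1A kept its direction throughout, between 0.30 and 0.43 on the log2 scale, with adjusted p from 0.00775 to 0.598. Depth limits the genes at a few CPM or below, such as HSPB1, HSPB6 and HSF4.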
